A study of Rattus norvegicus with 74 samples.

Results

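The data are liver gene expression profiles of rat pups given BDE-47 at 15 mg/kg, set against pups given 0 mg/kg. BDE-47 is a polybrominated diphenyl ether congener, one of the flame retardants that persist in house dust, breast milk and fat. The rule took the samples labelled with this agent and these doses, which gave 10 arrays of the 74 in the series, 5 at 15 mg/kg and 5 at 0 mg/kg. All were Wistar Han (Crl:WI (Han)) rats. By the series' design text, dams were dosed daily by oral gavage from gestation day 6 to 21 and their pups from postnatal day 12 to 21, and the livers were sampled at postnatal day 22. RNA came from pieces of the left liver lobe. The vehicle and the litter of each pup are not given in the sources used here, and pups of 1 litter could share a group. The p-values measure only the spread between samples within groups. That spread was estimated over all 15 groups of the series, which include rats given other agents. Further BDE-47 groups at 0.1 and 50 mg/kg, with 5 arrays each on the same schedule, show the dose steps around 15 mg/kg. DE-71, a commercial brominated diphenyl ether mixture that contains BDE-47, was given at 0 and 15 mg/kg on that schedule to 5 rats each. Phenobarbital, an anticonvulsant and a standard inducer of liver drug metabolism, was given by gavage at 0 and 45 mg/kg to 5 rats each, with no schedule of its own in the labels.

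A liver cell meets foreign chemicals with a few ligand-responsive transcription factors. The constitutive androstane receptor CAR and the pregnane X receptor PXR, encoded by Nr1i3 and Nr1i2, answer to many lipophilic compounds and raise cytochrome P450 oxidases, conjugating enzymes and export pumps. The aryl hydrocarbon receptor (AhR) answers to planar aromatic compounds and raises the Cyp1 genes, and the liver X receptors (LXR) answer to oxysterols and raise the sterol exporters Abcg5 and Abcg8. Brominated diphenyl ethers are known as activators of CAR and PXR in rodents.

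Each array gives 1 log2 value per probe set, and a gene was represented by 1 probe set, so that 14217 genes were tested with limma. A gene is called at a Benjamini-Hochberg adjusted p below 0.05, and "rose" and "fell" are used only of called genes. Array medians over all probe sets lay between 4.859 and 4.929 log2 units in the 10 arrays. Albumin mRNA (Alb, 14.71 to 14.78) and transthyretin mRNA (Ttr, 14.01 to 14.13) stood near the top of the scale in all 10, as in liver, while the T cell marker Cd3e stood at 3.84 to 4.46. The labels give no sex. The Y-linked genes Eif2s3y and Uty stood at 8.2 to 8.92 and at 7.3 to 8.25, and Xist at 2.74 to 3.02, in all 10 arrays.

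A few arrays were nearly identical to each other although the labels give them different sample numbers. Control replicates 3 and 4 differed by a root mean square of 0.1623 log2 units over the 300 most variable genes, and replicate 3 at 15 mg/kg differed from replicate 3 at 50 mg/kg by 0.1048. Those were 2 of 190 pairs of BDE-47 arrays, and the remaining pairs had a median of 0.9208 and a minimum of 0.5467. The control pair was averaged and counts as 1 sample, which leaves n = 5 against 4. Replicate 3 at 15 mg/kg was kept under its label, since the files do not settle which of the 2 dose labels is right. It was the most changed of the 5 treated samples in 74 of the 117 genes called below (63.2%, where an even share is 20%). The averaged control pair was the farthest from the treated samples in 45 of the 117 (38.5%, where an even share is 25%). Where the call of a gene described below ends without either sample, the value without it is therefore given beside the result.

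At 15 mg/kg 117 of 14217 genes were called (0.823%), of which 85 rose (0.598% of all genes) and 32 fell (0.225%). Of the rises 58 were at least 1.5-fold and 28 at least 2-fold, and of the falls 18 and 4. The median difference over all genes was -0.017 log2 units. The groups did not overlap in 102 of the called genes, 75 risen and 27 fallen, where 5.21% of all genes had groups that do not overlap in either direction. Without 15 mg/kg replicate 3, 56 genes were called (48 risen, 8 fallen), 55 of them among the 117. Without the averaged control pair 44 were called (35 and 9), 42 of them among the 117. Of 20 alternative settings, the filter on dim genes gave no value for some genes, Abcg8 among them. In the settings that gave a value, the sign of the difference was kept for all 117 genes and 28 were called throughout, 26 of them risen, beside the fallen Abcg8 and Dexi. These settings reuse the arrays from which the 117 genes were chosen, so a kept sign was likely beforehand and is a weak check.

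The drug-metabolizing P450 genes showed the largest rises. Control values are listed below in the order of replicate 1, 2, the mean of 3 and 4, and 5, and treated values in the order of replicates 1 to 5, all in log2 units. Cyp2c7, a P450 with a female bias in adult rat liver, stood at 8.16, 8.22, 8.02 and 10.09 in the controls and at 12.61, 13.09, 13.36, 13.26 and 13.39 at 15 mg/kg. Every treated sample lay above every control, and control replicate 5 stood apart from the other controls. The gene rose 22.9-fold (log2 difference 4.52, 95% confidence interval 3.15 to 5.89, adjusted p = 1.3e-05). Cyp2a3, a P450 known in the rat mainly from lung and nasal tissue, stood at 7.02, 6.57, 5.89 and 4.91 and at 9.78, 9.72, 10.9, 9.56 and 9.63. It rose 14.1-fold (3.82, interval 2.69 to 4.95, adjusted p = 9e-06), with treated replicate 3 far above the other treated samples, and by 3.58 without it (adjusted p = 0.00012). Cyp2c11, the main male-specific P450 of adult rat liver, went from 5.26, 6.42, 6.23 and 6.46 to 7.97, 8.4, 7.45, 8.12 and 8.02 and rose 3.73-fold (1.9, adjusted p = 0.0042). The groups did not overlap, although replicate 3 was here the lowest treated sample. The Cyp2c genes are close paralogs, and how far their probe sets also read each other's mRNA was not tested.

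Cyp2b1 and Cyp2b2, the classic phenobarbital-induced P450 genes of the rat, are read together by 1 probe set and are not among the 14217 genes. That probe set stood at 11.87, 11.97, 11.74 and 11.6 in the controls and at 13.76, 13.84, 13.86, 13.89 and 14.01 at 15 mg/kg. It rose by 2.08 log2 units (SE 0.22, interval 1.64 to 2.51, adjusted p = 7.3e-10 over all probe sets), from 11.8 ± 0.16 (SD, n = 4) to 13.87 ± 0.09 (SD, n = 5), and it rose in all 9 fits that left out 1 sample, by 2.01 to 2.14. In contrast, the related Cyp2b3, a constitutive family member, stood at 11.96, 11.51, 11.97 and 12.24 in the controls and at 10.41, 10.36, 11.11, 12.16 and 12.17 at 15 mg/kg, with no call (-0.68, adjusted p = 0.54). Its treated samples fell into a lower and a higher set, and the higher set overlapped the controls.

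Cyp3a23-3a1, the PXR-responsive P450 of the rat that oxidizes many drugs and steroids, was already near the top of the scale in controls, at 12.66, 13.02, 12.94 and 12.96. It reached 13.58, 13.69, 13.79, 13.63 and 13.57 at 15 mg/kg, where the groups did not overlap. It rose by 0.76 (SE 0.12, adjusted p = 1.3e-05), and by 0.73 without treated replicate 3 (adjusted p = 0.00016). CAR and PXR bind repeats of short hexamers, so the promoter windows of the called genes were searched on both strands for AGGTCA and AGTTCA, and for 2 such hexamers in the same orientation, 1 to 5 bases (N) apart. The windows run from 250 bases before to 50 after each gene's start in RefSeq's GRCr8 assembly, and 100 of the 117 called genes had one. A repeat with a spacer of 3 bases was found in 14 of 33469 windows (0.0418%), and among the called genes in Cyp3a23-3a1 alone. Spacers of 1, 2, 4 and 5 bases were found in 0.0956%, 0.0508%, 0.0179% and 0.0299% of all windows and in 0 of the 100. The Cyp3a23-3a1 window, at chr12:14398754-14399053 on the minus strand (GRCr8), is shown because it holds the repeat, which begins at position -144 from the gene's start and is in capitals.
Cyp3a23-3a1: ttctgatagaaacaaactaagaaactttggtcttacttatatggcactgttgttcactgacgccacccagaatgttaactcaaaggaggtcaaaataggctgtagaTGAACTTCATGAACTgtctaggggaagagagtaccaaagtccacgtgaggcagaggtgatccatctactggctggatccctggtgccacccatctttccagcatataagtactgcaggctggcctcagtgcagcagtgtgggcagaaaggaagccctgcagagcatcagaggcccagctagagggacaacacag
Single hexamers were common. AGGTCA was in 26 of the 100 windows and in 16.2% of all windows, and AGTTCA in 17 of the 100 and in 14.5% of all. A match is a description of the letters and says nothing of binding, and these windows hold no distant enhancer.

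Of the 23 measured genes on the list of CAR and PXR targets, 13 rose and 0 fell. Of all genes, 0.598% rose and 0.225% fell. The list median was 0.82 against -0.017 over all genes. Without treated replicate 3 the count of rises was 9, and without the averaged control pair 9. Beside the P450 genes, Ces2c, a carboxylesterase that cleaves ester drugs, stood at 8.22, 8.22, 7.9 and 7.91 in the controls and at 10.82, 11.62, 11.82, 11.71 and 11.38 at 15 mg/kg. It rose 10.6-fold (3.41, interval 2.9 to 3.91, adjusted p = 5.9e-16), and the groups lay more than 2 log2 units apart. Aldh1a1, the aldehyde dehydrogenase that makes retinoic acid, went from 11.28, 11.26, 11.1 and 11.1 to 12.48, 12.68, 13.04, 12.72 and 12.72 (1.54, SE 0.16, adjusted p = 4.2e-10). Cyp2c6v1, an abundant P450, rose by 0.72 (SE 0.09, adjusted p = 2e-07), from 13.18 ± 0.08 to 13.91 ± 0.07. The 10 members without a call ranged from Cyp2c13 (1.07) and Gadd45b (0.97) down to Cyp3a18 (-0.01) and Cyp2b3. The receptors' own genes Nr1i3 (-0.28, interval -0.83 to 0.26) and Nr1i2 (-0.15, interval -0.54 to 0.24) were not called.

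Heme and electrons are what P450 enzymes need to work. Alas1, which makes the first and rate-limiting step of heme synthesis, stood at 10.29, 10.49, 11.1 and 11.13 in the controls and at 11.87, 12.03, 12.29, 12.15 and 12.01 at 15 mg/kg (1.32, SE 0.24, adjusted p = 0.00034). It was the only one of 12 measured heme genes called, and the next largest difference on that list was 0.46 (Blvrb, adjusted p = 0.092). Por, the reductase that passes electrons to P450s, rose by 0.82 (adjusted p = 0.047), from 8.83 ± 0.06 to 9.65 ± 0.19. All 5 treated samples of Por lay above the controls, yet the call ended in 8 of 11 leave-out fits, with 0.8 (adjusted p = 0.13) without treated replicate 3 and 0.83 (adjusted p = 0.13) without the averaged control pair. The other Por probe set was not called (0.68). Over the 37 measured P450 genes of families 1 to 3 and their electron donors, 6 rose and 0 fell, with a median of 0.17. Of all genes, 0.598% rose. The lowest value of this list was -0.68, and 31 members had no call. Among them Cyp2e1 (-0.1), Cyp2d2 (0.03) and Cyp2j4 (0.05), named after their values were seen, showed small differences.

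**Figure D1:**
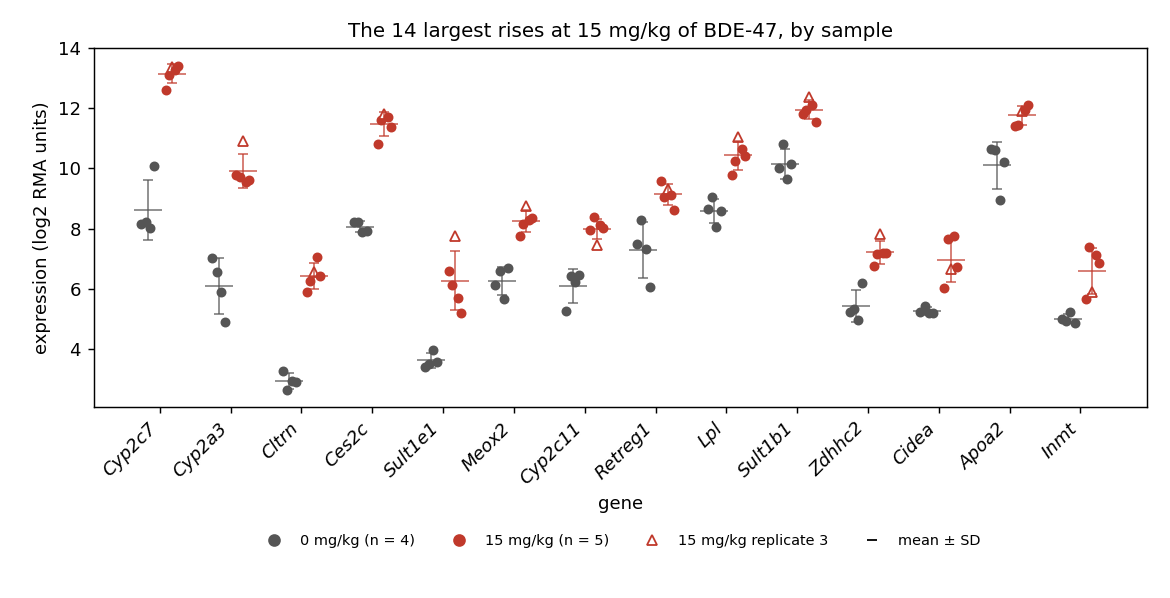
Expression in log2 RMA units (vertical axis) of the 14 genes with the largest rises, for each control sample (grey, n = 4) and each 15 mg/kg sample (red, n = 5), with mean ± SD. Open triangles mark treated replicate 3, and in each gene all treated samples lie above all controls.

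Conjugating enzymes, which attach sulfate or glucuronic acid and so make hormones and drugs water-soluble, had 6 of 23 members risen and 0 fallen (median 0.15). Of all genes, 0.598% rose. Ugt2b1, a glucuronosyltransferase of steroids and drugs, stood at 12.47, 12.35, 12.46 and 12.19 in the controls and at 13.53, 13.47, 13.45, 13.4 and 13.27 at 15 mg/kg (1.05, SE 0.13, adjusted p = 2.7e-08). Its treated samples differed among themselves by far less than from the controls. Ugt2b10 rose by 0.74 (adjusted p = 1.3e-05), Ugt2a1 by 0.81 (adjusted p = 0.0051) and Ugt2b35 by 0.34 (adjusted p = 0.0051). A probe set shared by the Ugt1a family, which includes the main thyroxine glucuronosyltransferases, rose by 0.38 (adjusted p = 0.027), a call made in 2 of 9 leave-out fits. Sult1b1, a sulfotransferase of thyroid hormones, went from 10, 10.82, 9.64 and 10.14 to 11.81, 11.95, 12.38, 12.09 and 11.53 (1.8, SE 0.36, adjusted p = 0.0021). Sult1e1, the estrogen sulfotransferase, was near the floor of the array in controls, at 3.43, 3.53, 3.99 and 3.59, and reached 6.59, 6.14, 7.75, 5.71 and 5.21. It rose 6.25-fold (2.64, interval 1.39 to 3.9, adjusted p = 0.017), with treated replicate 3 highest, and was not called without that sample (2.27, adjusted p = 0.12) or without the averaged control pair (2.76, adjusted p = 0.052).

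Sult1b1 and Ugt2b1 were also the members risen on the list of thyroid hormone handling and response (2 of 21, 0 fallen, median -0.03). Of all genes, 0.598% rose. Genes that thyroid hormone itself induces had no call. Me1, malic enzyme, stood at 1.31 (interval 0.53 to 2.1, adjusted p = 0.1), with all treated samples (8.91 to 9.5) above all controls (7.32 to 8.44). Dio1, the liver deiodinase, stood at 0.49 (interval -0.13 to 1.12, adjusted p = 0.59) and Thrsp, a hormone-responsive lipogenic gene, at -0.14 (interval -1.06 to 0.78, adjusted p = 0.95). The plasma carriers Ttr (-0.02, interval -0.11 to 0.07) and Alb (0.02, interval -0.05 to 0.09) differed by at most 0.11 log2 units within their intervals. Both stood near the top of the scale, where saturation could hide a change, and this was not tested.

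Export pumps had 3 of 13 measured members risen, where 0.598% of all genes rose. Abcc3, which moves glucuronides from the hepatocyte into blood, stood at 8.78, 8.16, 7.82 and 7.63 in the controls and at 9.59, 9.46, 10.14, 9.37 and 9.56 at 15 mg/kg (1.53, SE 0.25, adjusted p = 5.9e-05). Abcb1a, the P-glycoprotein pump, rose by 0.93 (adjusted p = 0.02) and Abcc2, the canalicular pump for conjugates, by 0.79 (adjusted p = 0.027). Neither was called without treated replicate 3 (0.84 and 0.72, adjusted p = 0.11 and 0.13) or without the averaged control pair (0.88 and 0.83, adjusted p = 0.11 and 0.073). Of the 15 measured hepatic uptake transporters 0 were called at an adjusted p, and the largest difference was in the taurine transporter Slc6a6, from 9.54, 8.75, 8.84 and 9.76 to 7.5, 8.39, 7.53, 7.79 and 8.39 (-1.3, adjusted p = 0.17), where the groups did not overlap.

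NRF2, a transcription factor that answers to electrophiles, shares part of its targets with CAR and PXR. Of 27 measured NRF2 targets 5 rose and 0 fell (median 0.28), where 0.598% of all genes rose. Of these 5, 4 are also on the CAR and PXR list, Aldh1a1, Abcc3, Ephx1 and Abcc2. Ephx1, microsomal epoxide hydrolase, rose by 1.23 (SE 0.28, adjusted p = 0.011), from 11.63 ± 0.23 to 12.86 ± 0.24. Its call ended without treated replicate 3 (1.16, adjusted p = 0.054) and without the averaged control pair (1.17, adjusted p = 0.074). The fifth was Gsta4, a glutathione transferase for lipid aldehydes (0.47, adjusted p = 0.039, but 0.12 without treated replicate 3 and 0.13 without the averaged control pair). The summed level of the 27 genes, on the linear scale, was 32664 to 37351 in treated samples and 19710 to 24337 in controls. Among the uncalled members, Nqo1 (-0.02), Hmox1 (-0.09) and Gclc (-0.1) were named after their values were seen. Whether NRF2 took part in the response was not tested. Gpx2, a glutathione peroxidase, stood at 4.22, 5.07, 4.27 and 3.95 in the controls and at 4.17, 6.96, 7.4, 7.02 and 6.8 at 15 mg/kg. Treated replicate 1 thus lay with the controls while the other treated samples lay far above them, and the gene was not called (2.09, adjusted p = 0.053). Of 20 glutathione transferase genes 2 rose, Mgst2 (0.6, adjusted p = 0.0068, but 0.1 without the averaged control pair) and Gsta4, and the list median was 0.16. A probe set shared by Gsta2 and Gsta5 rose by 0.99 (adjusted p = 0.0075), a call made in 7 of 9 leave-out fits.

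The sterol exporters showed the largest falls. Abcg5 and Abcg8 encode the 2 proteins of 1 transporter, which secretes cholesterol and plant sterols into bile. Abcg8 stood at 6.7, 7.36, 6.95 and 6.7 in the controls and at 4.29, 5.02, 4.14, 5.33 and 4.06 at 15 mg/kg. Abcg5 stood at 8.34, 8.68, 8.52 and 8.69 in the controls and at 5.98, 7.17, 6.48, 7.65 and 6.54. In both genes every treated sample lay below every control, and treated replicates 2 and 4 were the highest of the treated samples. Abcg8 was 5.13-fold lower (-2.36, interval -3.22 to -1.5, adjusted p = 5e-04) and fell in all 11 leave-out fits. Abcg5 was 3.46-fold lower (-1.79, interval -2.63 to -0.96, adjusted p = 0.014) and lost its call in 3 of 11, with -1.72 (adjusted p = 0.057) without treated replicate 3 and -1.81 (adjusted p = 0.06) without the averaged control pair.

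The pair lies head to head on chromosome 6. The annotated starts are 206 bases apart, at 15717936 for Abcg5 on the plus strand and 15717730 for Abcg8 on the minus strand, so that their promoter windows share 295 bases and are the same DNA read in opposite directions. The Abcg5 window, chr6:15717686-15717985 on the plus strand (GRCr8), is printed because it covers both starts. In capitals is TGAACT, the hexamer AGTTCA read on the other strand, which begins at position -69 from the Abcg5 start.
Abcg5: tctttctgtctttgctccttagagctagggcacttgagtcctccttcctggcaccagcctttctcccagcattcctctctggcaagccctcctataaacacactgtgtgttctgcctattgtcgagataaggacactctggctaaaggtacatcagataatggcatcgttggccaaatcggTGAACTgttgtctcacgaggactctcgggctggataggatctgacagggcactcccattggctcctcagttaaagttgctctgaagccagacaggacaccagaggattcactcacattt
That hexamer is in 14.5% of all windows, and no repeat of it was found here.

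Of the 14 measured sterol exporter and LXR target genes, 3 fell and 1 rose (median -0.16), where 0.225% of all genes fell and 0.598% rose. Without treated replicate 3 the list had 1 fallen and 1 risen, and the same without the averaged control pair. Pltp, which transfers phospholipids between lipoproteins, was the remaining fall (-0.76, adjusted p = 0.038), with groups that overlap and no call without treated replicate 3 (-0.64, adjusted p = 0.22) or the averaged control pair (-0.73, adjusted p = 0.16). Lpl, lipoprotein lipase, which frees fatty acids from plasma triglycerides and is low in adult liver, went the other way. It stood at 8.64, 9.05, 8.06 and 8.58 in the controls and at 9.79, 10.26, 11.06, 10.65 and 10.42 at 15 mg/kg (1.85, SE 0.33, adjusted p = 0.00026). The other LXR targets Abca1 (-0.06), Abcg1 (-0.25) and Srebf1 (-0.4) had no call. Scd, stearoyl-CoA desaturase, had the largest difference of the list, from 8.07, 8.94, 7.63 and 9.64 to 5.33, 6.69, 6.22, 5.64 and 6.82, with no overlap. Its spread over all groups was wide and it was not called (-2.43, interval -3.92 to -0.94, adjusted p = 0.12).

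Around the exporters, bile acid synthesis and transport had 0 of 23 genes called (median 0.02), cholesterol synthesis and uptake 0 of 23 (median 0.15) and fatty acid synthesis 0 of 25 (median -0.02). Cyp7a1, which starts bile acid synthesis from cholesterol, stood at 0.34 (interval -0.55 to 1.24), and Cyp8b1, which makes cholic acid, at -0.86 (interval -1.68 to -0.03, adjusted p = 0.41). These intervals leave room for changes of 1.5-fold and more. Apoa2, an HDL apolipoprotein, rose by 1.65 (adjusted p = 0.019), from 10.65, 10.61, 8.97 and 10.2 to 11.4, 11.44, 11.92, 11.94 and 12.11. The averaged control pair was its lowest control by more than 1 log2 unit, and without it the difference was 1.27 (adjusted p = 0.28). Without treated replicate 3 it was 1.61 (adjusted p = 0.068). Cidea, a lipid droplet protein, rose by 1.7 (adjusted p = 0.00056), from 5.27 ± 0.12 to 6.97 ± 0.73, and stayed called in all 11 leave-out fits. The 32 measured PPAR-alpha targets and fatty acid oxidation genes had 0 called and a median of 0.19.

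**Figure D2:**
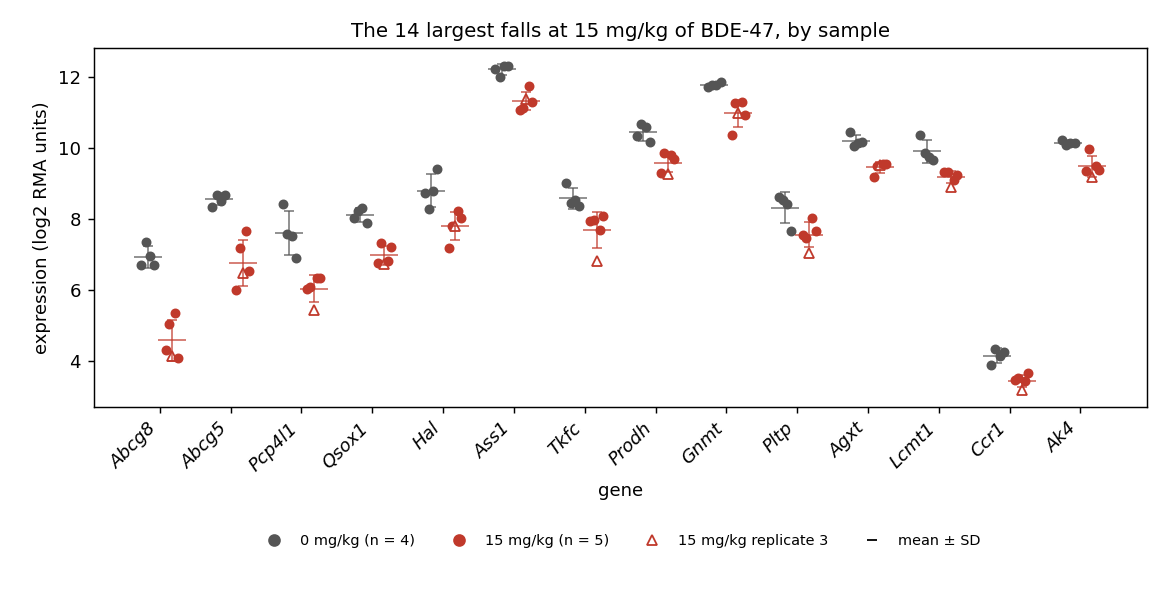
Expression in log2 RMA units (vertical axis) of the 14 genes with the largest falls, for each control sample (grey, n = 4) and each 15 mg/kg sample (red, n = 5), with mean ± SD. Open triangles mark treated replicate 3, and the groups overlap in Pltp.

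Amino acid catabolism was the list with the most falls. Of 31 measured genes of the urea cycle and amino acid breakdown, 5 fell and 0 rose, where 0.225% of all genes fell. Their median was -0.25 against -0.017 over all genes, and 7 had every treated sample below every control, where 2.43% of all genes did. Without treated replicate 3 the count of falls was 3, and without the averaged control pair 1. Ass1, argininosuccinate synthase of the urea cycle, stood at 12.23, 12.01, 12.32 and 12.33 in the controls and at 11.09, 11.14, 11.39, 11.75 and 11.29 at 15 mg/kg (-0.89, adjusted p = 0.029). Hal, which starts histidine breakdown, went from 8.72, 8.27, 8.78 and 9.41 to 7.17, 7.81, 7.79, 8.23 and 8.04 (-0.99, adjusted p = 0.015). Gnmt, which consumes S-adenosylmethionine to methylate glycine, was tight in controls, at 11.72, 11.77, 11.78 and 11.86, and stood at 10.37, 11.28, 11, 11.31 and 10.94 in treated pups (-0.8, adjusted p = 0.013). Agxt, the alanine-glyoxylate aminotransferase, fell by 0.75 (adjusted p = 0.0067), with treated values from 9.18 to 9.55 against 10.07 to 10.45. Prodh, proline dehydrogenase, fell by 0.86 (adjusted p = 0.048) and was called in 5 of 11 leave-out fits, while its other probe set stood at -0.23 without a call. The groups did not overlap in any of these 5 genes. Ass1 and Prodh were not called without treated replicate 3 (adjusted p = 0.07 and 0.19), and without the averaged control pair the call was left to Agxt (adjusted p = 0.023). Other urea cycle genes, Cps1 (-0.25), Otc (-0.12) and Arg1 (-0.13), had no call, and Sds, serine dehydratase, had the lowest value of the list without a call (-1.11). Among genes on no list, Prodh2, hydroxyproline dehydrogenase, fell by 0.45 (adjusted p = 0.019) and Slc25a22, a mitochondrial glutamate carrier, by 0.53 (adjusted p = 0.025). Slc25a22 was not called without treated replicate 3 (adjusted p = 0.12), and neither gene without the averaged control pair (adjusted p = 0.062 and 0.065). Ddc, the aromatic amino acid decarboxylase, rose by 0.96 (adjusted p = 0.0095), and its other probe set was not called (0.2).

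Glucose, glycogen and fructose metabolism had 1 of 20 genes fallen and 0 risen (median -0.15), where 0.225% of all genes fell. Tkfc, the triokinase that phosphorylates glyceraldehyde from fructose, stood at 9.01, 8.44, 8.53 and 8.36 in the controls and at 7.93, 7.96, 6.82, 7.69 and 8.08 at 15 mg/kg (-0.89, adjusted p = 0.011). Treated replicate 3 was its lowest value by far, and the gene was not called without it (-0.67, adjusted p = 0.13). The other Tkfc probe set was not called either (-0.09). Stbd1, a protein that binds glycogen, rose by 1.05 (SE 0.19, adjusted p = 0.00055), from 9.02 ± 0.07 to 10.07 ± 0.18.

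**Figure D3:**
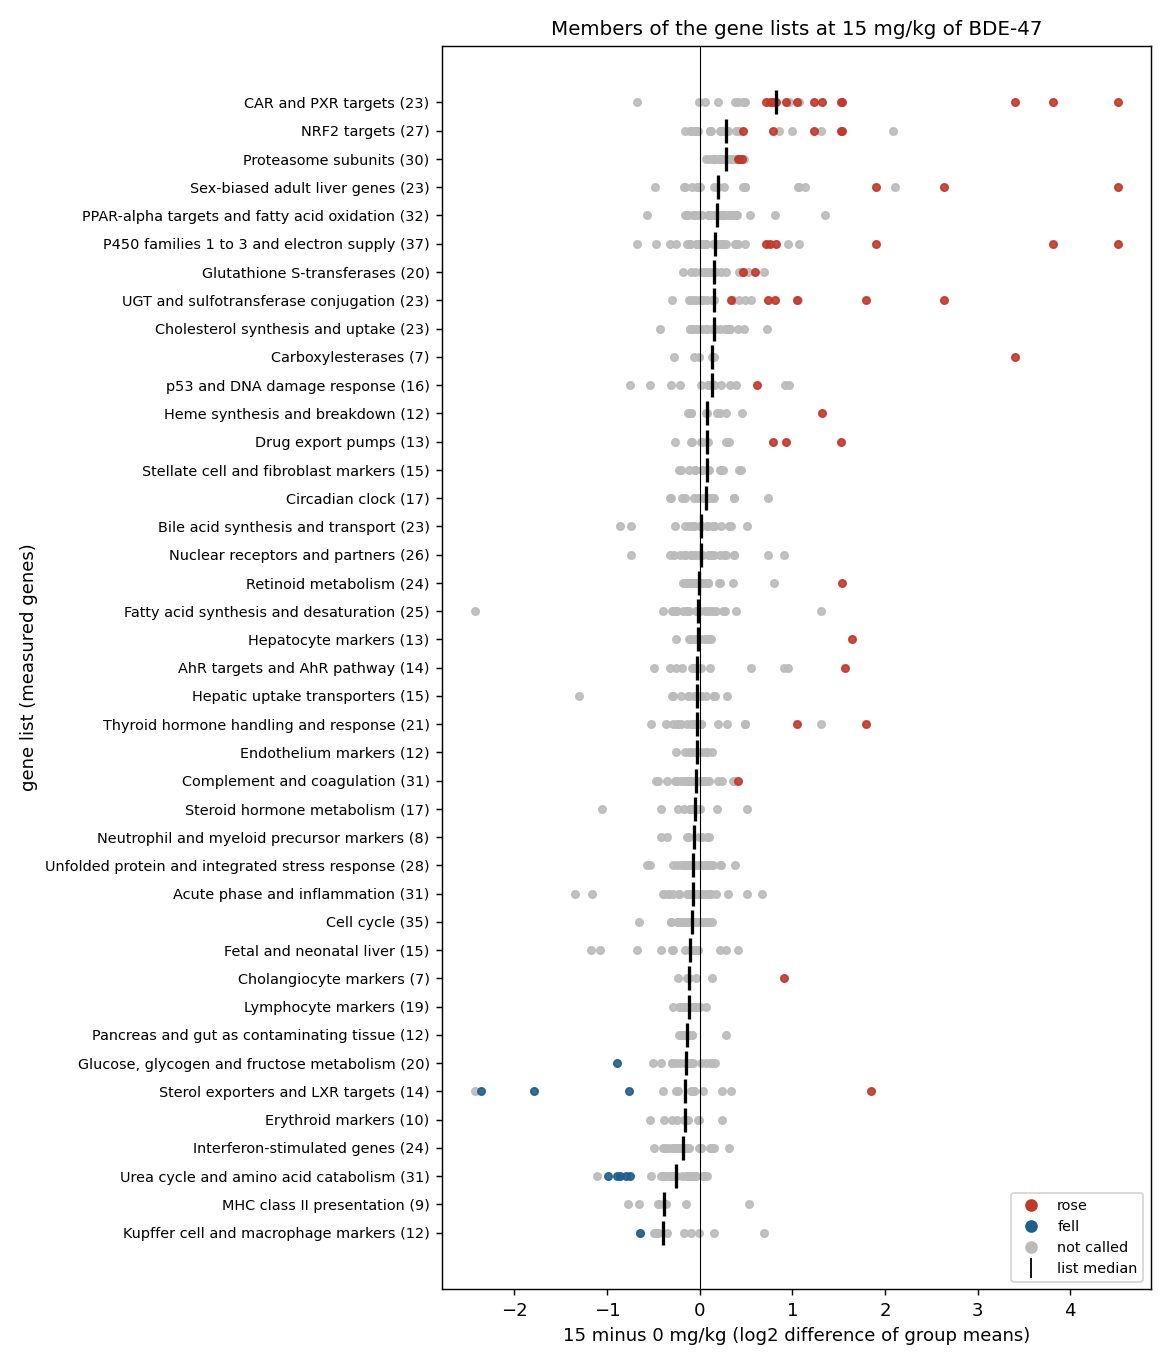
Difference between 15 and 0 mg/kg in log2 units (horizontal axis) for every measured member of the lists with at least 5 measured genes, with risen members in red, fallen in blue, uncalled in grey and the list median as a black bar. The CAR and PXR targets have the highest median (0.82) and the Kupffer cell markers the lowest (-0.4).

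Of the 117 called genes 77 are on none of the lists (55 risen, 22 fallen), which is 0.571% of the 13492 genes on no list, against 0.823% of all genes. Cltrn, which encodes collectrin, a membrane protein that helps amino acid transporters to the cell surface in kidney, was near the floor in controls, at 3.29, 2.64, 2.95 and 2.91. It reached 5.89, 6.26, 6.56, 7.05 and 6.43 at 15 mg/kg (3.49, SE 0.4, adjusted p = 9.7e-09). Zdhhc2, a palmitoyltransferase, went from 5.23, 5.33, 4.98 and 6.19 to 6.75, 7.16, 7.82, 7.19 and 7.21 (1.79, SE 0.21, adjusted p = 2.7e-08). The groups did not overlap in either gene. Meox2, a homeobox factor, rose by 2 (adjusted p = 0.00013), and Retreg1, a receptor for autophagy of the endoplasmic reticulum, by 1.86 (adjusted p = 0.0094), although the other Retreg1 probe set was not called (0.49, adjusted p = 0.088). Sgpl1, sphingosine-1-phosphate lyase, rose by 1.2 (adjusted p = 5.3e-05) with groups that overlap, since control replicate 5 (6.89) lay above treated replicate 1 (6.84).

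App, the amyloid precursor protein, stood at 10.1, 10.39, 9.94 and 10.13 in the controls and at 11.28, 11.37, 11.13, 11.28 and 10.98 at 15 mg/kg (1.07, SE 0.13, adjusted p = 1.1e-07). Vav2, a signalling protein, went from 7.87, 7.95, 8.03 and 7.7 to 8.81, 9.07, 8.98, 8.77 and 9.1 (1.06, SE 0.16, adjusted p = 9.4e-06). All 4 probe sets of Vav2 rose, by 0.99 to 1.18, and 2 of the 3 probe sets of App, by 1.07 and 1.37. Treated replicate 3 was not the highest value of either gene. Mmgt1, a membrane magnesium transporter, rose by 0.97 (adjusted p = 9e-06), Adss1, of purine nucleotide synthesis, by 0.84 (adjusted p = 0.00011), Parp1, the DNA strand break sensor, by 0.76 (adjusted p = 0.00026) and Cndp2, a cytosolic dipeptidase, by 0.68 (adjusted p = 4e-04). Each of these 4 was called in all 11 leave-out fits, although the other Adss1 probe set was not called (0.51, adjusted p = 0.092).

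Among the falls outside the lists, Pcp4l1, a small relative of a calmodulin-binding protein, stood at 8.41, 7.57, 7.51 and 6.9 in the controls and at 6.01, 6.07, 5.42, 6.34 and 6.32 at 15 mg/kg (-1.56, adjusted p = 0.027). Its other probe set fell by 2.09 (adjusted p = 0.0016 over all probe sets). Qsox1, which forms disulfide bonds in secreted proteins, went from 8.04, 8.23, 8.32 and 7.89 to 6.76, 7.33, 6.74, 6.82 and 7.2 (-1.15, adjusted p = 0.019). The other Qsox1 probe set was not called (-0.8, adjusted p = 0.42). In neither gene did the groups overlap, and neither was called without treated replicate 3 (-1.41 and -1.09, adjusted p = 0.13 and 0.076) or without the averaged control pair (-1.6 and -1.09, adjusted p = 0.081 and 0.098). Pemt, which makes phosphatidylcholine by methylation, fell by 0.42 (adjusted p = 0.019), Lcmt1, which methylates protein phosphatase 2A, by 0.73 (adjusted p = 0.039) and Ak4, a mitochondrial adenylate kinase, by 0.67 (adjusted p = 0.0096). None of these 3 was called without treated replicate 3 (adjusted p = 0.12, 0.17 and 0.068), nor were Pemt and Lcmt1 without the averaged control pair (adjusted p = 0.081 and 0.08). The other Ak4 probe set was not called (-0.02). Dexi (-0.62, SE 0.11, adjusted p = 2e-04) and Tm4sf4, a membrane protein of hepatocytes (-0.44, SE 0.08, adjusted p = 0.00047), were called in all 11 leave-out fits.

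Proteasome subunits showed small differences of 1 sign. Of 30 measured subunits 3 rose and 0 fell, Psma1 (0.46, adjusted p = 0.019), Psmd6 (0.42, adjusted p = 0.019) and Psmd1 (0.41, adjusted p = 0.033). Of all genes, 0.598% rose. All 30 subunits lay above 0, from 0.07 to 0.48 with a median of 0.28, and 13 had every treated sample above every control, where 2.79% of all genes did. None of the 3 was called without treated replicate 3 (adjusted p = 0.14, 0.084 and 0.14) or without the averaged control pair (adjusted p = 0.081, 0.17 and 0.11). Cell cycle genes had 0 of 35 called (median -0.08), the unfolded protein response 0 of 28 (median -0.07) and interferon-stimulated genes 0 of 24 (median -0.18). On the p53 and DNA damage list Mdm2, the ubiquitin ligase of p53, rose by 0.62 (adjusted p = 0.014), from 7, 7.04, 6.99 and 7.18 to 7.71, 7.74, 7.71, 7.58 and 7.6. It was called in 9 of 11 leave-out fits, and not without the averaged control pair (0.6, adjusted p = 0.075). Its other 2 probe sets were not called (0.57 and 0.07, adjusted p = 0.2 and 0.97). The remaining 15 of 16 genes, among them the p53 target Cdkn1a (-0.31), had no call.

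The markers of other liver cells were examined for the makeup of the tissue. C1qc, a complement gene of Kupffer cells and other macrophages, fell (-0.64, adjusted p = 0.011, but 0.068 without treated replicate 3), with treated values from 8.13 to 8.94 that overlap the controls at 8.76 to 9.24. In bulk tissue, fewer cells of a type and less RNA per cell cannot be told apart. It was 1 of 12 measured macrophage markers with a call (median -0.4), and their summed level, on the linear scale, ranged from 3958 to 6342 in treated samples and from 4938 to 6381 in controls. Clec4f, which marks Kupffer cells, stood at -0.64 without a call, and the MHC class II list had 0 of 9 called (median -0.38). Epcam, a marker of bile duct cells and of hepatic progenitors, rose (0.91, adjusted p = 0.012, but 0.088 without treated replicate 3 and 0.081 without the averaged control pair), while the other 6 cholangiocyte markers, among them Krt19 (0.13) and Krt7 (-0.12), had no call. The lists for stellate cells, endothelium, lymphocytes, neutrophils and erythroid cells had 0 called of 15, 12, 19, 8 and 10, and the list for pancreas and gut tissue 0 of 12. Fetal and neonatal liver genes had 0 of 15 called (median -0.1). Their summed level, on the linear scale, was 25734 to 31380 in treated samples and 32484 to 38834 in controls, without overlap. Afp, alpha-fetoprotein, which declines as the liver matures, stood at 12.65, 13.13, 12.43 and 12.66 in the controls and at 12.3, 11.75, 12.2, 11.64 and 12.31 at 15 mg/kg (-0.68, interval -1.41 to 0.06, adjusted p = 0.5). Every treated sample of Afp lay below every control, as in 2.43% of all genes, yet the gene was not called.

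Around 15 mg/kg, the lower and the higher dose were compared to place the change on the dose scale. Against 0.1 mg/kg (n = 5 against 5), with the same 5 treated arrays, 150 genes were called (1.06% of all genes), 109 risen (0.767%) and 41 fallen (0.288%). After quantile normalization again the split was 90 and 58. Ces2c rose by 3.47 (adjusted p = 1.5e-17), Zdhhc2 by 2.07, Cyp3a23-3a1 by 1.05 and Ugt2b1 by 1.06 in that comparison, and Abcg8 fell by 2.03 (adjusted p = 0.002) and Abcg5 by 1.68 (adjusted p = 0.012). By limma no gene differed between 0.1 and 0 mg/kg at an adjusted p (0 of 14217), while 457 had an unadjusted p below 0.05. Ces2c, for example, stood at 8.06 ± 0.18 (n = 4), 8 ± 0.42, 11.47 ± 0.4 and 11.92 ± 0.16 (SD, n = 5 each) at 0, 0.1, 15 and 50 mg/kg. Its 0 and 0.1 mg/kg means differed by less than their spread.

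The step from 15 to 50 mg/kg (n = 5 against 5) had 0 calls by limma (0%), and 427 genes had an unadjusted p below 0.05. The difference between these doses varied among the genes risen at 15 mg/kg. Ugt2b1 stood at -0.04 (adjusted p = 1), and Fbxo27, an F-box protein, at 0.89 (interval 0.51 to 1.27, adjusted p = 0.12). Without 15 mg/kg replicate 3, the array that nearly equals a 50 mg/kg array, 5 genes were called. Prss8 (0.99, adjusted p = 0.0056), Fbxo27 (1, adjusted p = 0.033), Ttc39a (1.17, adjusted p = 0.038) and Grk5, a receptor kinase (1.02, adjusted p = 0.038), were higher at 50 mg/kg, and Sat2 was lower (-0.64, adjusted p = 0.038). Prss8, Fbxo27 and Ttc39a were called without both near-identical arrays as well. These genes were chosen by that outcome, and the 50 mg/kg values otherwise share controls with those at 15 mg/kg. Against 0 mg/kg, the differences at 15 and 50 mg/kg were 4.52 and 4.87 for Cyp2c7, 3.41 and 3.86 for Ces2c, 1.79 and 2.53 for Zdhhc2, -2.36 and -2.94 for Abcg8, -1.79 and -2.66 for Abcg5 and -0.89 and -0.94 for Ass1.

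**Figure D4:**
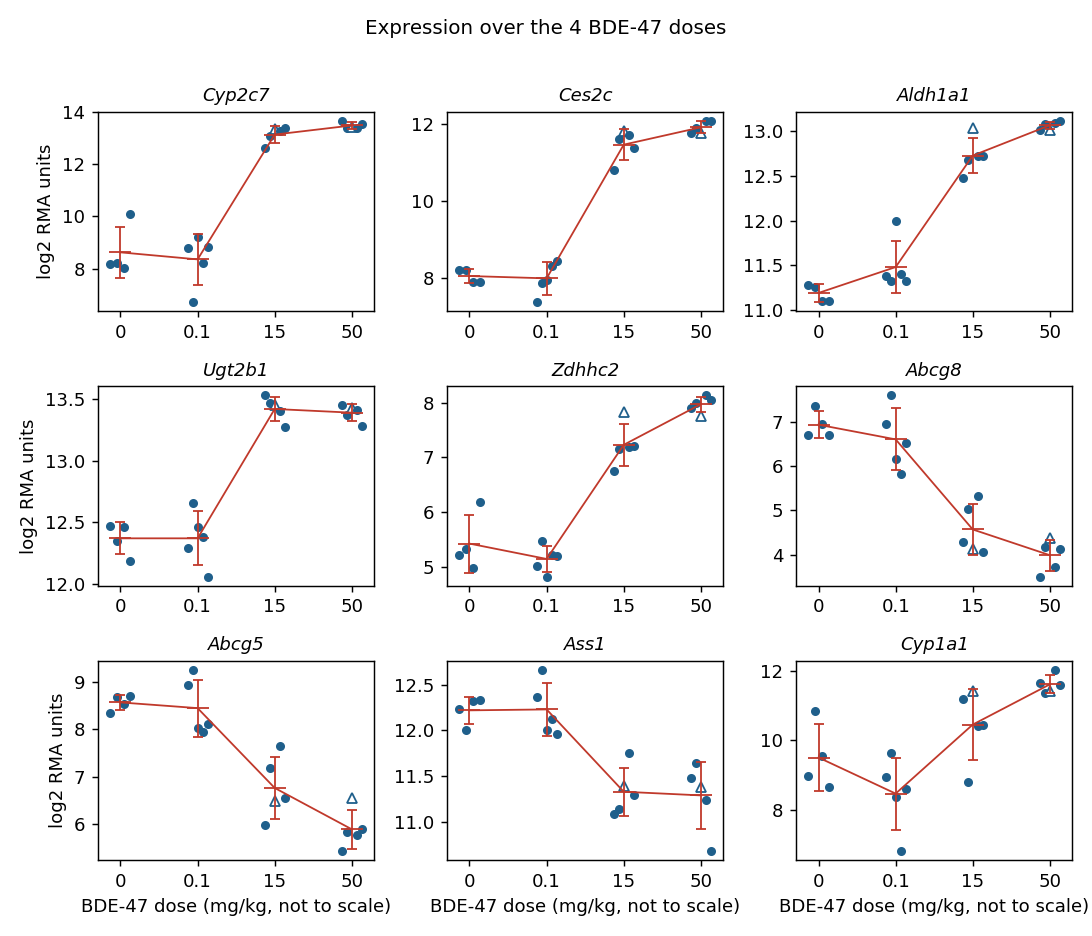
Expression in log2 RMA units (vertical axes) of 9 genes over the BDE-47 doses (horizontal axes, not to scale), with each sample as a point, the mean ± SD in red (n = 4 at 0 mg/kg, otherwise 5) and replicate 3 at 15 and 50 mg/kg as open triangles. Levels at 0 and 0.1 mg/kg overlap in every panel but that of Aldh1a1, and Cyp1a1 overlaps between 0 and 15 mg/kg as well.

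DE-71 was compared with BDE-47 at the same dose, as a difference of responses, each against its own controls, and 2 AhR targets were called. Cyp1a1, the most sensitive AhR target, stood at 8.97, 10.84, 9.55 and 8.66 in the BDE-47 controls and at 11.19, 8.79, 11.41, 10.42 and 10.44 at 15 mg/kg, with overlapping groups and no call (0.95, interval -0.26 to 2.15, adjusted p = 0.59). At 50 mg/kg of BDE-47 it stood at 11.35 to 12.02, above every control, and at 0.1 mg/kg its mean was 8.46. The missing call at 15 mg/kg thus does not show that BDE-47 leaves Cyp1a1 unchanged. In the DE-71 study arm it stood at 6.8, 4.41, 8.05, 7.69 and 7.59 at 0 mg/kg and at 13.38 (the mean of near-identical replicates 1 and 2), 12.57, 11.84 and 12.97 at 15 mg/kg, where the groups lay far apart. The last of these, DE-71 replicate 5 at 15 mg/kg, was itself nearly identical to replicate 4 at 50 mg/kg of DE-71 (root mean square 0.124). The response to DE-71 exceeded that to BDE-47 by 4.83 log2 units (interval 3.13 to 6.54, adjusted p = 0.0056, n = 4 against 5 and 5 against 4). The 0 mg/kg means were 9.5 with BDE-47 and 6.91 with DE-71, and the 15 mg/kg means 10.45 and 12.69. Part of the difference of responses thus lay between the control groups. Cyp1a2, the constitutive hepatic member, was -0.32 with BDE-47 (interval -0.66 to 0.01), and its response to DE-71 was higher by 1.27 (interval 0.79 to 1.74, adjusted p = 0.011). Its 0 mg/kg means were 13.03 with BDE-47 and 12.6 with DE-71. No other gene was called in this difference (0.0141% of all genes). Neither was called when the fit held no arrays but those compared here (adjusted p = 0.48 and 0.49), with only the BDE-47 and DE-71 arrays (0.2 for each) or without BDE-47 0 mg/kg replicate 2 (0.071 and 0.075). Cyp1a2 alone also lost its call without the averaged BDE-47 controls (0.054), without DE-71 0 mg/kg replicate 1 (0.059) or 2 (0.065), without the averaged DE-71 15 mg/kg pair (0.091) and without DE-71 15 mg/kg replicate 5 (1.2, adjusted p = 0.076). Without that last array Cyp1a1 stood at 4.74 (adjusted p = 0.025). Of 14 measured genes of the AhR list 1 rose with BDE-47, the methyltransferase gene Inmt (1.57, adjusted p = 0.019), which was not called without the averaged control pair (adjusted p = 0.052) and also rose with phenobarbital (2.15, adjusted p = 2.8e-05).

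Phenobarbital and DE-71 were measured in other rats with their own controls, so their group means share no array with those of BDE-47. The spread of each gene was estimated over all groups together, so the calls of the agents are not independent. Of the 85 genes risen at 15 mg/kg of BDE-47, 65 rose with phenobarbital at 45 mg/kg (n = 5 against 5), which is 76.5% of the BDE-47 list and 33.2% of the 196 genes risen there (1.38% of all genes). Of the 32 fallen, 19 fell with phenobarbital, 59.4% of the BDE-47 list and 10.1% of the 188 fallen there (1.32% of all genes). The phenobarbital comparison called 384 genes in all (2.7%) and that of DE-71 177 (1.24%). With DE-71 at 15 mg/kg (n = 4 against 5), 58 of the 85 rose, 68.2% and 40.6% of the 143 risen there (1.01%), and 8 of the 32 fell, 25% and 23.5% of the 34 fallen there (0.239%). In neither case was a gene called in the opposite direction. The probe set of Cyp2b1 and Cyp2b2 rose by 2.25 with DE-71 and by 1.97 with phenobarbital. At 15 mg/kg of BDE-47 it stood at 13.76 to 14.01, near the top of the scale, where saturation could hide differences between agents. Abcg8 fell with phenobarbital (-1.63, adjusted p = 0.012) and stood at -1.13 with DE-71 (adjusted p = 0.28), while Abcg5 fell with phenobarbital (-1.42, adjusted p = 0.03) and stood at -1.08 with DE-71 (adjusted p = 0.28). Ass1 was called in neither (-0.46 and -0.4). Whether the responses to phenobarbital and BDE-47 differ was not tested.

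**Figure D5:**
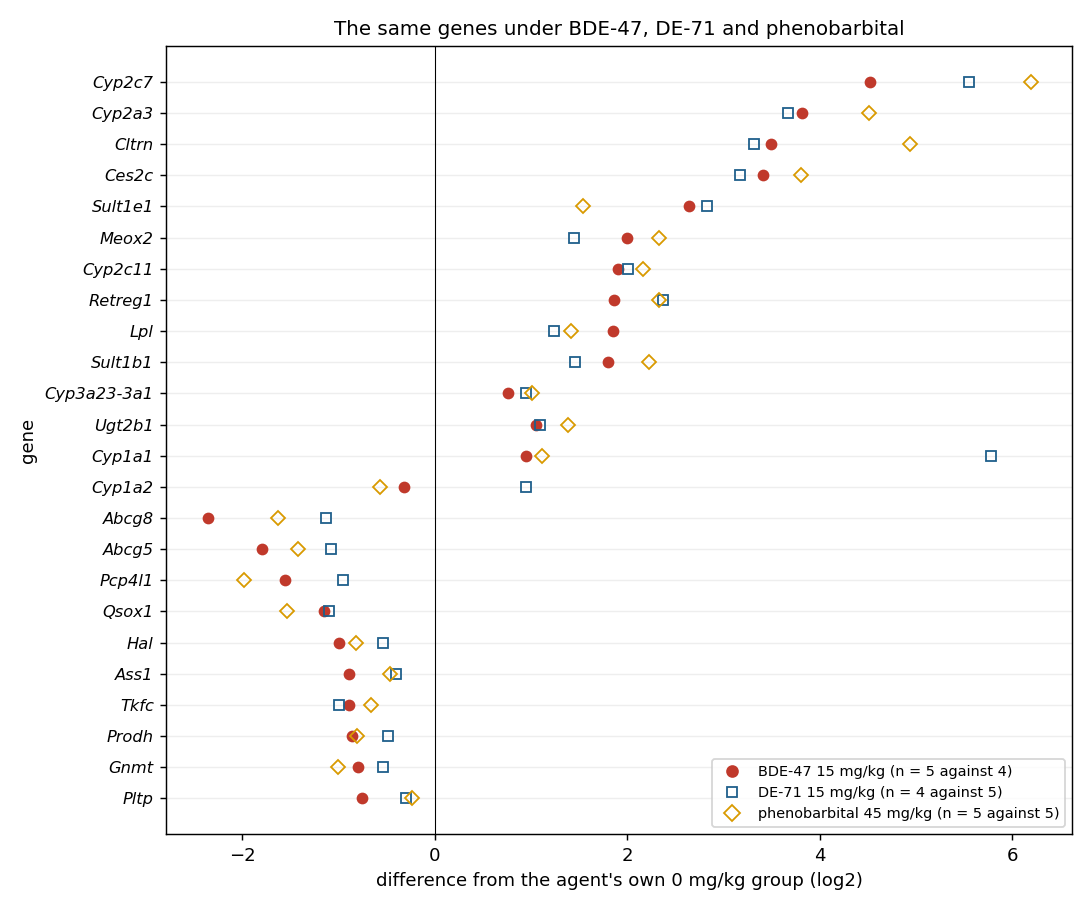
Difference from the 0 mg/kg group of the same agent in log2 units (horizontal axis) for BDE-47 at 15 mg/kg (red, n = 5 against 4), DE-71 at 15 mg/kg (blue squares, n = 4 against 5) and phenobarbital at 45 mg/kg (yellow diamonds, n = 5 against 5). The risen and fallen genes keep their side of 0 under all agents, and Cyp1a1 stands at 5.78 with DE-71 against 0.95 with BDE-47.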

How the data were processed

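Biotin-labelled liver RNA was hybridised to Affymetrix rat arrays. The authors deposited log2 values per probe set made with RMA, per the submitters' processing notes, which name no version; RMA subtracts background, sets all arrays to 1 distribution and so removes any shift shared by most genes. Of 31099 probe sets, 57 controls were left out. Array annotation of 2016 gave 20826 probe sets 1 gene, 436 several and 9780 none. Each gene was represented by its probe set with the highest mean.

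limma 3.58.1 in R 4.3.3 fitted means of 15 groups over 72 samples (57 residual and 5 prior degrees of freedom) with a moderated, two-sided test and Benjamini-Hochberg adjustment over 14217 genes. A root mean square below 0.3 marked near-identical arrays, and pairs within 1 group were averaged. Replicate numbers did not pair the groups (correlations of deviations from -0.14 to 0.075). On simulated data the fit called 16%, 74%, 98% and 100% of genes changed 1.25-, 1.5-, 2- and 4-fold, with 4 false calls. The number of arrays limits the precision.

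Genes named are the 20 largest rises and falls, up to 5 called members per list (or the 2 lowest p), set index genes, the 10 lowest p and up to 5 per direction in the other contrasts; any called gene may be added. Other uncalled genes of a list were named after their values were seen. The comparison, the 42 gene lists (818 of 959 entries measured) and the rules were chosen with earlier results of these data known. Alternatives changed the arrays fitted, near-identical arrays, the replicate block, normalization, a dim-gene filter (mean of 6), the variance model, the gene summary and single replicates. Some genes are not analysed here.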

Additional observations from a re-analysis of the deposited data

Results flagged for a closer look

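In 17 of 342 groups tested, 1 sample stood apart from the rest of its group. Chance marks about 1 in 20 such groups. At 15 mg/kg these were replicate 3 in Cyp2a3 (10.9, the others at most 9.78), Mnd1 (8.48, the others at most 7.95) and Inava (4.11, the others at least 4.45), replicate 1 in Agxt (9.18, the others at least 9.5) and Gpx2 (4.17, the others at least 6.8), and replicate 5 in Tns4 (3.22, the others at most 3.03). Among the controls, replicate 5 stood apart in Cyp2c7 (10.09, the others at most 8.22), Cerk (6.84, the others at least 7.27), Prf1 (3.46, the others at least 4.21) and Slc4a1 (6.4, the others at least 7.11). The averaged replicates 3 and 4 stood apart in Dio1 (6.61, the others at least 7.01), Herc3 (6.15, the others at least 6.86) and Mettl15 (5.48, the others at least 6.64). Control replicate 1 did in Krtcap3 (4.57, the others at most 3.96) and Akr7a2 (9.65, the others at most 9.45), and replicate 2 in Cidea (5.45, the others at most 5.23) and Igf2bp3 (9.39, the others at most 9.18).

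The response to DE-71 at 15 mg/kg exceeded that to BDE-47 by 4.83 log2 units for Cyp1a1 and by 1.27 for Cyp1a2, by the test of the difference itself. Part of each difference lay between the DE-71 and BDE-47 groups at 0 mg/kg, and both calls depended on the arrays fitted.

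Among the 9780 probe sets without a gene symbol, 20 were called at 15 against 0 mg/kg (0.204%), 19 risen and 1 fallen. The largest rise was by 3.65, from 3.45 to 7.11 (adjusted p = 1e-10), and the probe set that fell did so by 0.57.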

How the results depend on the processing

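Against 0 mg/kg, 339 genes were called with all 74 arrays as separate samples (237 risen, 102 fallen), and 49 without the near-identical 15 and 50 mg/kg arrays (42 and 7). Leaving out 1 replicate gave 44 to 128 calls, 35 to 92 risen and 8 to 38 fallen: without the averaged control pair 44 (35 and 9), and without 15 mg/kg replicate 3 56 (48 and 8). Against 0.1 mg/kg, 68 genes were called with only the arrays of this comparison (53 and 15) and 87 without the near-identical arrays (66 and 21), and leaving out 1 replicate gave 90 to 179, 68 to 123 and 22 to 56. Between 50 and 15 mg/kg, 3 genes were called without the near-identical arrays, all 3 higher at 50 mg/kg, and leaving out 1 replicate gave 0 to 5, 0 to 4 higher and 0 to 1 lower. The difference of responses between DE-71 and BDE-47 had 0 calls, 0 of them higher, with only its own arrays (754 genes at an unadjusted p below 0.05) and with only the BDE-47 and DE-71 arrays (547), and 0 to 2 with 1 replicate left out, 0 to 2 higher. Fewer samples enter the fits that leave arrays out, and the cause of the other shifts was not tested. With the replicate number as a block, 137 genes were called (96 and 41), although the numbers do not pair these samples: 1 of 5 treated arrays correlated best with the control of its own number. The other settings kept the counts against 0 mg/kg between 96 and 141, but not all the same genes. With only the arrays of this comparison 96 were called, 65 of them among the 117. With only the BDE-47 arrays 141 were called, 93 of them among the 117. Of the 117 genes, 32 were called in all 11 leave-out fits and 85 lost the call in at least 1, with the sign kept. The 11 include the fits without control replicate 3 alone (128 calls) and without replicate 4 alone (127). In those fits the near-identical array stayed and n remained 5 against 4, so they are a weak check. With 5 against 4 samples, changes under 1.5-fold were seldom called in simulated data, and genes near the floor of the array have only a rough level.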
